A study of Mus musculus with 2 samples.

Results

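Matrix metalloproteinases (MMPs), their tissue inhibitors (TIMPs), the ADAM and ADAMTS metalloproteinases, the ADAMTS-like proteins and the lysyl oxidases are described here in regenerating mouse liver. The genes were chosen by symbol alone: every probe set with 1 annotated gene symbol that begins with Mmp, Timp, Adam or Loxl and a digit, or with Adamts, or that is Lox. That gave 132 of 45101 probe sets and 74 of 18193 named genes, among them 18 Mmp, 4 Timp, 28 Adam, 20 Adamts and Adamtsl, and 4 Lox and Loxl genes. Genes of these families without such a probe set, among them Loxl2, Adamts2 and Adamts13, were not analysed. The mice were BALB/c nude animals, which have no functional thymus and few mature T cells. Their liver tissue was taken at day 3 after a 70% partial hepatectomy and, as the submitters' control, at day 0. Each day had 1 array of biotin-labelled RNA. Whether an array held RNA of 1 animal or of several is not in the labels, and no sham-operated mice were analysed here. With 1 array a day no spread between samples exists and no test was possible. Day, surgery and animal cannot be told apart.

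These enzymes and inhibitors set how much extracellular matrix a tissue holds. MMPs are zinc enzymes, made as inactive precursors, that cut collagens, elastin and other matrix proteins, and TIMPs block their active site. ADAMs are mostly membrane-bound and shed the outer parts of surface proteins such as growth factor precursors and Notch receptors. ADAMTS enzymes are secreted and cut large proteoglycans and procollagens. Lysyl oxidases oxidise lysines of collagen and elastin so that fibres become cross-linked. In liver much of this set is known from stellate cells, other fibroblasts and macrophages, and matrix is remodelled while the remaining lobes regrow. In whole tissue, more cells of a type and more RNA per cell cannot be told apart.

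All values are MAS5 signals, an array intensity on a linear scale, or their log2 ratio, day 3 over day 0. Signals were raised to a floor of 68.3 where they fell below it (the larger median of both arrays), and a gene with several probe sets was represented by the one with the highest mean log2 signal after flooring. Where 1 day lay under the floor the fold is a lower bound, written "at least". On these arrays 12634 genes had a signal above the floor on at least 1 day. The hepatocyte markers stood far above it on both days, from 11044 (Hnf4a) to 50960 (Apoa1) at day 3 and from 14363 (Asgr1) to 64984 (Apoa1) at day 0. For the poly-A control RNAs, added before labelling, the 3' over 5' signal was higher at day 3 in 8 of 8 dap, lys, phe and thr pairs, by 1.32 to 2.90 times. A further Bacillus control, TrpnX, went the other way, 0.135 times, with every signal under the floor (38.9 at day 3 and 5.79 at day 0 at its 5' end, 2.79 at day 3 and 3.07 at day 0 at its 3' end). At the 5' ends of the 8 pairs the median log2 ratio was -1.20, and at their 3' ends -0.12. The dap, lys, phe and thr RNAs were each probed by more than 1 pair, so the 8 pairs are not 8 separate RNAs. Where each member's probe set lies along its transcript was not analysed.

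Of the 74 genes, 37 were above the floor on at least 1 day. Of these, 13 were at least 2-fold higher at day 3 and 2 at least 2-fold lower, against 12.9% and 5.62% of all 12634 genes. In percent the members' counts were 35.1% and 5.41%. Their median log2 ratio was 0.56, against 0.08 for all genes. Of the 13, 6 lay under the floor at day 0 and so had to be higher to be counted. Among the 23 members above the floor on both days, 7 were higher and 1 lower, 30.4% and 4.35%, against 11.7% and 5.76% of all such genes. Most members were dim. With a mean log2 signal under 8, 11 of 27 members were at least 2-fold higher (40.7%) and 2 lower, against 17.3% and 4.76% of all genes in that range. Between 8 and 10, 2 of 8 were higher (25%) and 0 lower, against 15.7% and 4.8%. Above 10 stood Adam10 and Adam9, neither past 2-fold, where 5.63% of all genes were higher and 7.28% lower. Scaling to the hybridisation spikes (bacterial and phage transcripts added after labelling) gave 15 members higher and 0 lower. Of all genes, 19.6% were then higher and 3.10% lower. At 4-fold, 6 members were higher and 0 lower, against 3.27% and 0.76% of all genes. When the 75th percentile served as the floor, 2 of 9 members were higher, against 7.47% of all genes.

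**Figure D1:**
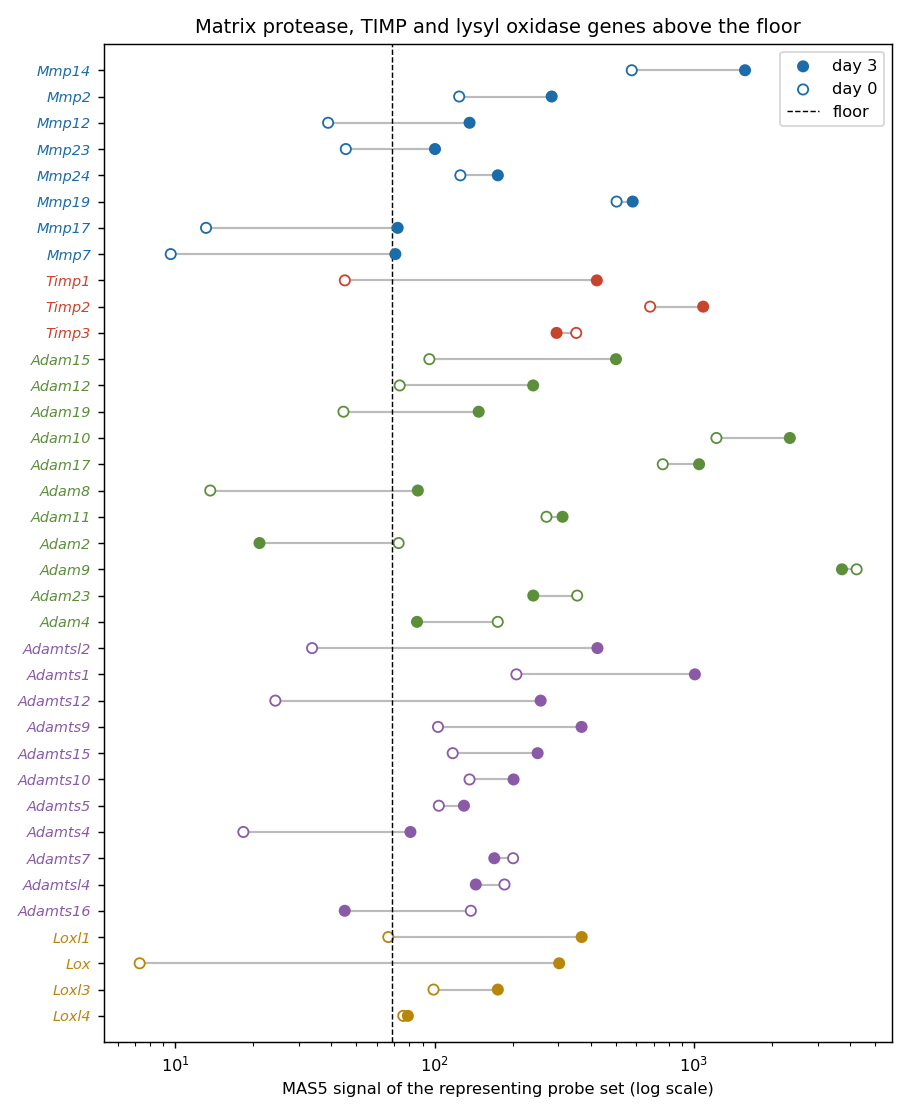
MAS5 signal of the representing probe set of each of the 37 genes above the floor, on a log scale, at day 3 (filled) and day 0 (open), with 1 array a day and no error bars. Colours mark the Mmp, Timp, Adam, Adamts with Adamtsl, and Lox with Loxl genes, and the dashed line is the floor of 68.3. Lox, Timp1, Loxl1, Adamtsl2, Adamts12 and Adam19 cross the floor upwards with a bound of 2-fold or more.

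The 4 inhibitor genes ranged from at least 6.19-fold higher to under the floor. Timp1, a secreted inhibitor of most MMPs, had a signal of 422.3 at day 3, against 45.1 at day 0. The day 0 value was below the floor, so its 1 probe set gives that bound. Timp2, which both inhibits Mmp2 and helps Mmp14 to activate it, had 1085 at day 3 and 677.5 at day 0, a 1.60-fold higher signal. Its other 2 probe sets above the floor had log2 ratios of 0.93 and 0.01, so each Timp2 ratio stayed under 2-fold. Timp3, a matrix-bound inhibitor that also acts on Adam17 and the aggrecanases, had 295.4 at day 3 and 351.7 at day 0, a log2 ratio of -0.25. The sign turned with spike scaling (0.04) and with the mean over probe sets (0.17). One further Timp3 probe set stood apart from the rest, with 215.9 at day 3 against 84.8 at day 0 (log2 ratio 1.35), while the other 2 had -0.18 and -0.24. Timp4 was under the floor on both days. Of the inhibitors, then, Timp1 was past 2-fold on the probe set used, and Timp3 on a probe set not used to represent it.

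Among the MMPs, the membrane-bound Mmp14 and the gelatinase Mmp2 were past 2-fold and measured on both days. Mmp14, which cuts fibrillar collagen at the cell surface and activates the Mmp2 precursor, had 1574 at day 3, against 575.7 at day 0, a 2.73-fold higher signal. All 3 Mmp14 probe sets were past 2-fold, with log2 ratios from 1.31 to 1.68. Mmp2, which degrades denatured and basement membrane collagen, had 282.8 at day 3 and 124.5 at day 0, a 2.27-fold higher signal. Its second probe set had a log2 ratio of 1.15. Mmp14 and Mmp2 were the only genes among the 13 with several probe sets above the floor that were all past 2-fold. After quantile normalisation the Mmp2 log2 ratio was 0.94, while that of Mmp14 stayed between 1.34 and 1.74 in all 11 alternative settings.

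The other Mmp genes above the floor had folds or bounds under 2-fold. Mmp12, the macrophage elastase, had 136.5 at day 3 and 38.9 at day 0, and its bound of at least 1.999-fold lay just under the threshold. Mmp19, a secreted enzyme of basement membrane components, had 580.5 at day 3 and 503.3 at day 0, a log2 ratio of 0.21. Mmp24, a membrane-type enzyme, had 175.4 at day 3 and 125.8 at day 0 on 1 probe set (log2 ratio 0.48) and a log2 ratio of -0.80 on another, so its direction is not settled. Mmp23, Mmp17 (membrane-anchored) and Mmp7 (matrilysin) were above the floor at day 3 only, at 100.4, 72.1 and 70.6, with bounds of at least 1.47-fold, 1.06-fold and 1.03-fold. Such bounds do not show that a gene stayed under 2-fold. With the 25th percentile as the floor, the log2 ratios of Mmp12, Mmp23, Mmp17 and Mmp7 were 1.81, 1.14, 1.87 and 1.84. With 16 added they were 1.47, 0.92, 1.59 and 1.76. Both settings use day 0 signals under the floor of 68.3, where values are not reliable. The other 10 Mmp genes gave no ratio at the floor of 68.3.

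Those genes under the floor included all 4 collagenase genes (Mmp1a, Mmp1b, Mmp8 and Mmp13) and the gelatinase gene Mmp9. Mmp9 had signals of 45.9 and 43.7 on its 2 probe sets at day 3, against 32.4 and 41.8 at day 0. Mmp8, a collagenase stored in neutrophil granules, had 62.4 at day 3 and 8.99 at day 0, and Mmp13 had 0.850 at day 3 and 1.34 at day 0. None of these values passed the floor, where the order of signals is not reliable. Beside them, 2 of 5 neutrophil markers above the floor were at least 2-fold higher, S100a8 and S100a9, against 12.9% of all genes. Mpo, Cxcr2, Camp and Ltf were under the floor on both days.

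Of the 10 Mmp genes under the floor, 7 lie beside each other or beside another Mmp gene. In the RefSeq gene table of GRCm38.p6, Mmp13, Mmp12, Mmp1b, Mmp3, Mmp1a, Mmp10 and Mmp8 follow each other with no other protein-coding gene between them, and of these 7 genes Mmp12 was the only one above the floor, at day 3. Mmp20 and Mmp7 form a second such pair, with Mmp7 above the floor at day 3. The promoter windows of these neighbours share a sequence feature. The letters TGACTCA or TGAGTCA, which are the same motif read on opposite strands and match the binding sequence of AP-1 factors, occur in 1709 of 32851 RefSeq promoter windows (5.20%), each reaching from 250 bases before to 50 after a gene's start. They occur in 9 of 47 member windows (19.1%), which belong to 9 of the 42 member genes with a window, and in 7 of the 9 Mmp neighbours, between 93 and 35 bases before the start, counted to the first base of the motif on the gene's strand. Among members, the motif was found for 6 of 22 genes under the floor on both days, 2 of 12 under 2-fold and 1 of 8 at least 2-fold higher (Adam19). The 100 bases before the start are shown for the 7 neighbours that hold the motif, with the motif in capitals, and for Mmp14 and Timp1, which were higher at day 3 and hold none in their window. They are RefSeq sequences of GRCm38.p6, 5′ to 3′ on the gene's strand.
Mmp1a, chr9:7464041-7464140, plus strand: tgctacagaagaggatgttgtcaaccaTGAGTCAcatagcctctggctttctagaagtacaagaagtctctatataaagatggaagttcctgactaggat
Mmp1b, chr9:7388027-7388126, minus strand: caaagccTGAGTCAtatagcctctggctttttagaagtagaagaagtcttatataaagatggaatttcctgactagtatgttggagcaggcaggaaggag
Mmp3, chr9:7445722-7445821, plus strand: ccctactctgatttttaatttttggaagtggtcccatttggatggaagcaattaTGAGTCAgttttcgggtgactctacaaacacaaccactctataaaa
Mmp7, chr9:7691990-7692089, plus strand: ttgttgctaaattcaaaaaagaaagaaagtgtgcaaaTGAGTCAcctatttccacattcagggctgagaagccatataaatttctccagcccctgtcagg
Mmp10, chr9:7502242-7502341, plus strand: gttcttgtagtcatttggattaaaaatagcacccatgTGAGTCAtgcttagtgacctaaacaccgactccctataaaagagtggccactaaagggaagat
Mmp12, chr9:7347274-7347373, plus strand: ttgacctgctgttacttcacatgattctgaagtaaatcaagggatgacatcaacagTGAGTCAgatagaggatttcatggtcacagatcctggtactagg
Mmp13, chr9:7272414-7272513, plus strand: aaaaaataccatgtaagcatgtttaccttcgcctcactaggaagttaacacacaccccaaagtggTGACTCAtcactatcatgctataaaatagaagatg
Mmp14, chr14:54431498-54431597, plus strand: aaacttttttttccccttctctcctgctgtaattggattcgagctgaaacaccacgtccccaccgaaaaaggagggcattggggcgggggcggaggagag
Timp1, chrX:20870066-20870165, plus strand: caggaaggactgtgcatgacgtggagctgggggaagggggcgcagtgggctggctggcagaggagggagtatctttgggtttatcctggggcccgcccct

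Mmp12 and Mmp7 each have a second RefSeq window, and it holds no motif. Adam19 holds the motif in 1 of its windows, and its other windows hold none. The G and C content of the 250 bases before the start was 55.2% for Mmp14 and 54.4% for Timp1, against 37.2% to 42% for the 7 neighbours with the motif. A match describes letters and is not a measured binding site.

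Lysyl oxidase genes gave large bounds. Lox, which cross-links collagen and elastin, had 302.4 at day 3 and 7.30 at day 0 and was at least 4.43-fold higher. A second Lox probe set had 101.3 at day 3 and 49.5 at day 0 and was at least 1.48-fold higher, and the last was under the floor on both days. When 16 was added to each signal in place of a floor, the second probe set represented the gene and the log2 ratio was 0.84. Loxl1, which acts on elastic fibres, had 369.2 at day 3 and 66.3 at day 0, slightly below the floor, which gives at least 5.41-fold. Loxl3 had 175.4 at day 3 and 99.1 at day 0, a 1.77-fold higher signal. Loxl4 was close to the floor on both days, with 78.9 at day 3 and 75.8 at day 0. Lox and Loxl1 were thus past 2-fold, and Loxl3 and Loxl4 were not. Loxl2 was not analysed.

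Among the ADAMs, the main sheddases stayed under 2-fold. Adam10, which cuts Notch receptors and E-cadherin, had 2342 at day 3 and 1221 at day 0, a 1.92-fold higher signal that passed 2-fold with spike scaling only (log2 ratio 1.23). Its second probe set above the floor had a log2 ratio of 0.67. Adam17, which releases tumour necrosis factor and ligands of the EGF receptor, had 1047 at day 3 and 758.1 at day 0, a 1.38-fold higher signal. Adam9, a sheddase found in many tissues, had 3720 at day 3 and 4235 at day 0, a log2 ratio of -0.19 that turned to 0.10 with spike scaling.

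Adam12, Adam19 and Adam15 were past 2-fold at day 3. Adam12, a protease of muscle and activated fibroblasts, had 240.0 at day 3 and 73.4 at day 0, a 3.27-fold higher signal on the 1 probe set above the floor. Adam19, known for its role in heart development in mice, had 148.0 at day 3 and 44.6 at day 0 and was at least 2.17-fold higher. Adam15 had 500.4 at day 3 and 95.5 at day 0 on a probe set marked as shared with similar transcripts, a 5.24-fold higher signal. Its other 2 probe sets above the floor had log2 ratios of 0.35 and -0.38. Without the shared probe sets the Adam15 log2 ratio was 0.35, so its place among the 13 rests on that 1 probe set. Adam8, a protease of leukocytes, had 86.3 at day 3 and 13.7 at day 0, a bound of at least 1.26-fold.

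The ADAMs of other tissues were mostly under the floor. Of 16 genes known from testis and epididymis, 14 were under the floor on both days, and so were 6 of 7 testis germ cell markers. Adam4, one of those 16, had 85.6 at day 3 and 175.3 at day 0, a 2.05-fold lower signal. Adam2, a sperm surface protein, had 21.2 at day 3 and 72.7 at day 0, a log2 ratio bound of -0.09. Of the neural ADAMs, which lack protease activity, Adam23 had 240.2 at day 3 and 354.7 at day 0 (log2 ratio -0.56), Adam11 had 311.5 at day 3 and 270.1 at day 0 (0.21, against -0.06 after quantile normalisation and -0.03 with the mean over probe sets), and Adam22 was under the floor. Adam28 and Adam33 were under the floor as well. In all, 50% of the member genes were under the floor on both days, against 30.6% of all named genes.

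**Figure D2:**
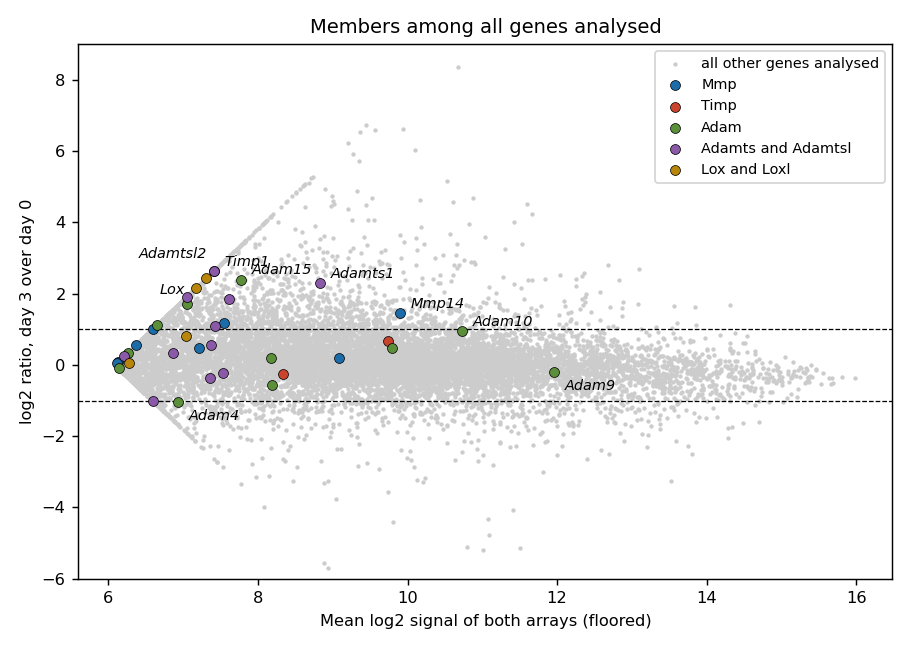
Log2 ratio, day 3 over day 0, against the mean log2 signal of both arrays for all 12634 genes (grey) and the 37 members (coloured by family), with dashed lines at 2-fold. The slanting edges are genes under the floor on 1 day. Members lie mostly at low signal, with 13 on or above the upper line and 2 on or below the lower line.

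By count the Adamts and Adamtsl genes together held the most members past 2-fold, 5 higher and 1 lower of 11 above the floor (45.5% and 9.09%). Without the ADAMTS-like genes, 4 were higher and 1 lower of 9 (44.4% and 11.1%). Over all genes the shares were 12.9% and 5.62%. As a share, the Lox and Loxl genes had more higher members, 2 of 4 (50%). Adamtsl2, an ADAMTS-like protein without protease activity that binds fibrillin microfibrils, had 424.6 at day 3 and 33.7 at day 0 and was at least 6.22-fold higher. When the 75th percentile served as the floor, its day 3 signal hardly passed the floor and the bound was a log2 ratio of 0.0016. Adamts1, which cuts versican and aggrecan, had 1008 at day 3 and 206.8 at day 0, a 4.87-fold higher signal measured on both days. Adamts12, which cuts cartilage oligomeric matrix protein, had 256.5 at day 3 and 24.3 at day 0 and was at least 3.76-fold higher. Its other probe set was under the floor on both days.

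Adamts9, a further versican-cutting enzyme, had 368.8 at day 3 and 103.1 at day 0, a 3.58-fold higher signal. A second Adamts9 probe set was slightly lower at day 3, with 112.1 at day 3 and 127.0 at day 0, and the mean over probe sets was a log2 ratio of 0.83. Adamts15, also a proteoglycan-cutting enzyme, had 249.7 at day 3 and 117.5 at day 0, a 2.12-fold higher signal that was 0.83 on the log2 scale after quantile normalisation. Adamts16 had 45.1 at day 3 and 138.1 at day 0, at least 2.02-fold lower. Adamts16 and Adam4, the 2 lower members, came to log2 ratios of -0.72 and -0.74 with spike scaling.

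The aggrecanases Adamts4 and Adamts5 differed between their own probe sets. Adamts5 had 129.8 at day 3 and 103.9 at day 0 on the probe set used, a log2 ratio of 0.32, while another had 154.8 at day 3 and a day 0 signal far below the floor, a log2 ratio bound of 1.18. Adamts4 had 80.8 at day 3 and 18.3 at day 0 on 1 probe set and 41.4 at day 3 and 69.4 at day 0 on the other. Its log2 ratio of 0.24 turned to -0.75 when the 25th percentile served as the floor and to -0.58 with 16 added. Adamts10, which takes part in microfibril assembly, had a log2 ratio of 0.56, Adamts7 one of -0.24 (0.05 with spike scaling) and Adamtsl4 one of -0.37. The other 9 genes of this family were under the floor on both days.

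Several probe sets of a gene are the nearest thing to a repeat measurement here. Of 15 members with at least 2 probe sets above the floor, 9 had all of them on the same side of 0 and 6 on both sides. No member had probe sets past 2-fold in both directions. The SD of the log2 ratio between the first 2 probe sets of a gene was 0.60 per probe set for the 10 members with 2 above the floor on both days, against 0.44 for all 4380 such genes. This SD covers probe sets of the same 2 arrays, not animals. Of the 13 higher members, 8 rested on 1 probe set above the floor. Over probe sets, 18 of 59 member probe sets above the floor were at least 2-fold higher and 2 lower, against 11.2% and 6.07% of all probe sets.

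**Figure D3:**
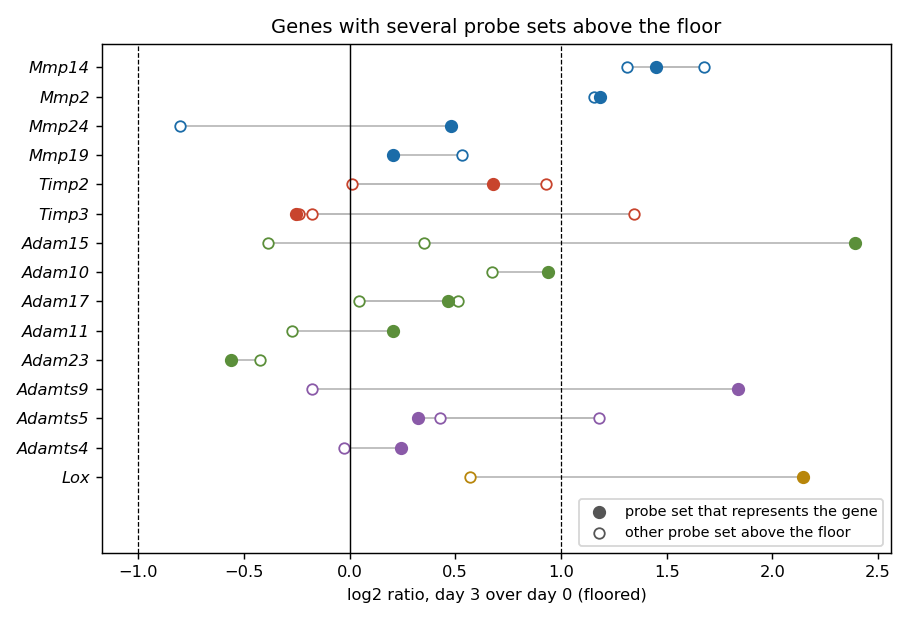
Log2 ratio, day 3 over day 0, of each probe set above the floor for the 15 members with at least 2 of them; filled points represent the gene, open points are its other probe sets, and dashed lines mark 2-fold. Mmp14 and Mmp2 keep their probe sets together above 1, while those of Adam15, Adamts9 and Timp3 spread across 0.

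Related genes outside the families were set beside the members. Of 17 matrix proteins that enzymes of these families cut, analysed here or not, 12 were at least 2-fold higher (70.6%) and 0 lower. The shares over all genes were 12.9% and 5.62%. The median log2 ratio of the 17 was 1.68. Col1a1, a chain of collagen I, had 1131 at day 3 and 43.4 at day 0, at least 16.6-fold higher, and Nid1, a basement membrane linker, had 7113 at day 3 and 460.0 at day 0, a 15.5-fold higher signal. Col3a1 was 10.6-fold higher. Elastin, a substrate of Lox and Loxl1, had 739.9 at day 3 and 120.2 at day 0, 6.16-fold higher on the probe set used and 0.26 on the log2 scale on another. The medians of the member families were smaller, from 0.34 for Adam genes to 1.49 for the 4 Lox and Loxl genes.

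Genes for the modification, folding, trimming and cross-linking of collagen were higher in part. The median log2 ratio of 15 such genes was 0.85. Of these, 4 were at least 2-fold higher (26.7%) and 0 lower, against 12.9% and 5.62% of all genes. Those 4 were Serpinh1, the collagen chaperone (6.53-fold), Plod2, a collagen lysyl hydroxylase (at least 3.54-fold), P3h3 (at least 2.93-fold) and Tgm2, a cross-linking transglutaminase (2.04-fold). The other Tgm2 probe sets had log2 ratios from -0.37 to 2.12. Among the astacins and procollagen processing genes, Pcolce, which speeds removal of the collagen propeptide, was 5.07-fold higher, and Bmp1, the protease it helps, had 1608 at day 3 and 1423 at day 0. That list had 1 of 4 past 2-fold (25%).

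Of 16 regulators of metalloproteinases, 5 were at least 2-fold higher (31.25%) and 0 lower, against 12.9% and 5.62% of all genes. The median log2 ratio of the 16 was 0.58. Rhbdf1 and Rhbdf2, which carry Adam17 to the cell surface, had signals of 1280 and 781.1 at day 3, against 382.3 and 252.5 at day 0, 3.35-fold and 3.09-fold higher. Thbs2, a matricellular protein that clears Mmp2, was 4.19-fold higher on 1 probe set, with a log2 ratio of 0.53 on another. Pcsk5, a proprotein convertase, was 3.11-fold higher, and Tspan15, a partner of Adam10, 2.17-fold. The convertases Pcsk6 and Furin went the other way. Pcsk6 had 1463 at day 3 and 2893 at day 0, 1.98-fold lower and just short of the threshold. Furin had 1680 at day 3 and 2452 at day 0, 1.46-fold lower. Reck, a membrane-anchored MMP inhibitor, had 187.9 at day 3 and 109.7 at day 0, a 1.71-fold higher signal. Of 5 plasminogen system genes, Plat, the tissue-type activator, was at least 2.64-fold higher (another probe set at 0.11) and Plaur, the urokinase receptor, 2.24-fold. Plau, the urokinase gene, was under the floor on both days, and Plg had 33562 at day 3 and 41952 at day 0.

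**Figure D4:**
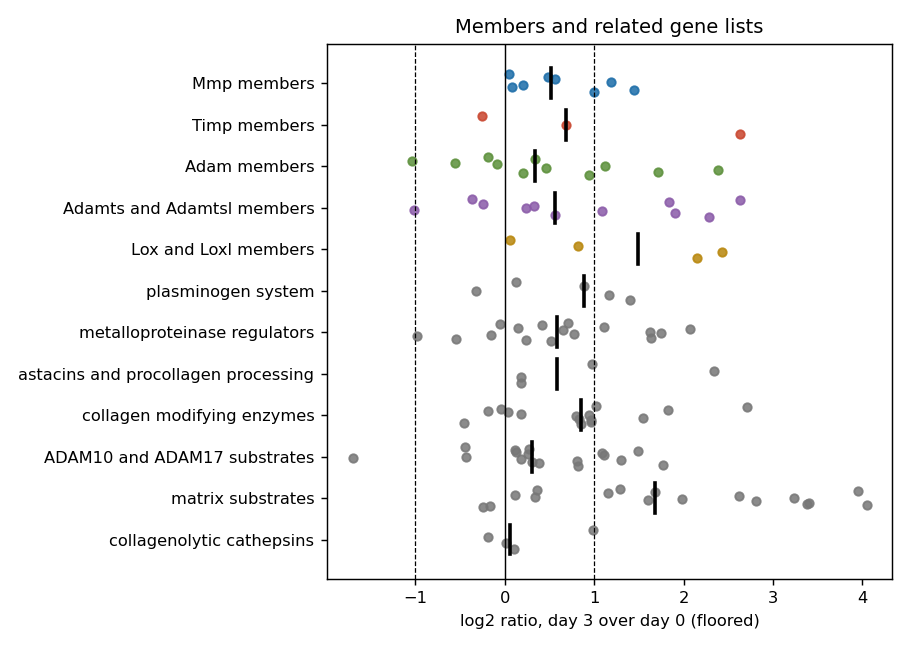
Log2 ratio, day 3 over day 0, of each gene above the floor on at least 1 day for the member families (coloured) and the related lists (grey), with the median as a black bar and dashed lines at 2-fold. The matrix substrates reach 4.05 (Col1a1) with a median of 1.68, and the collagenolytic cathepsins have a median of 0.06.

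Markers of cell types known to make these proteins were also higher in part. Over all genes, 12.9% were at least 2-fold higher and 5.62% lower. Of 10 stellate cell and fibroblast markers, all above the floor, 6 were at least 2-fold higher and 0 lower. Their summed signal was 40105 at day 3 and 14744 at day 0, of which Col3a1 gave 9600 and 907.5. Col1a1, Col3a1 and Dcn are also among the matrix proteins above, so these lists overlap. Lrat (1.22-fold), Dcn (1.26-fold) and Rgs5 (1.76-fold) stayed under 2-fold, and Des had a bound under it (at least 1.45-fold). Of 10 Kupffer cell and macrophage markers, 7 were higher, with sums of 23528 at day 3 and 9261 at day 0. Cholangiocyte markers were higher for 4 of 5, with sums of 1304 at day 3 and 351.5 at day 0, and monocyte markers for 3 of 4, with Cx3cr1 and Itgam under the floor on both days. Sinusoidal endothelial markers were past 2-fold for 0 of 9, with sums of 10244 at day 3 and 14279 at day 0, and hepatocyte markers for 0 of 9, with sums of 296180 at day 3 and 379750 at day 0. Their part in the members' differences was not tested.

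**Figure D5:**
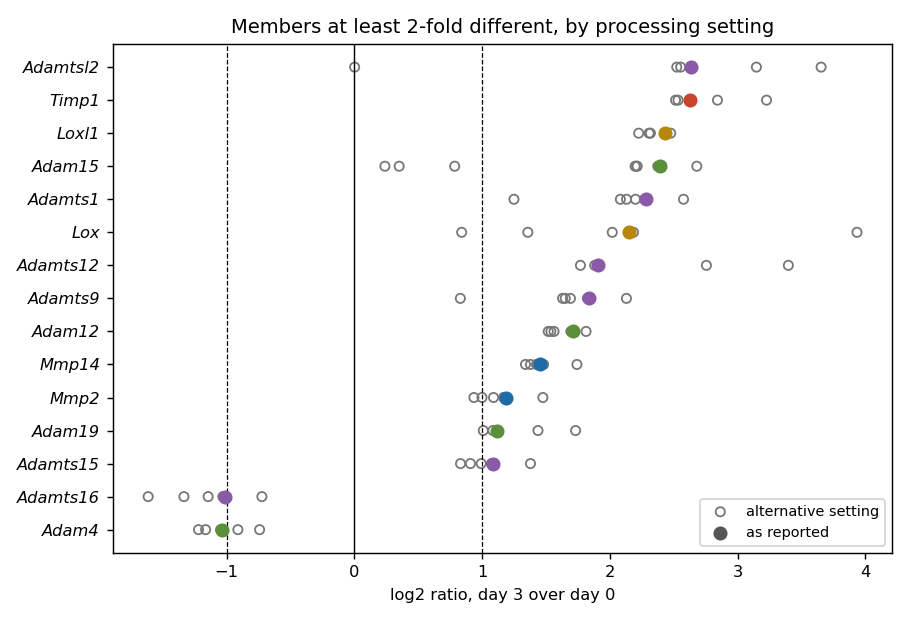
Log2 ratio, day 3 over day 0, of the 15 members at least 2-fold different as reported (filled) and under up to 11 alternative processing settings (open), with dashed lines at 2-fold. No point crosses 0; Timp1, Loxl1, Adamts1, Adamts12, Adam12, Adam19 and Mmp14 stay above 1 in every setting that gives a value, while Adamtsl2, Adam15, Lox, Adamts9, Mmp2 and Adamts15 drop below 1 in some.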

How the data were processed

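The deposited values are probe set intensities on a linear scale, made with GCOS and MAS5 per the submitters' processing notes; neither version nor scaling target is given in these notes, and detection calls were not used. MAS5 subtracts mismatch from perfect match probes, which can make ratios of dim probe sets noisy. Both arrays had a mean of 500.0 after trimming 2% at each end, and precision is limited by the number of arrays, 1 per day. Probe sets were named through the platform annotation; 932 with several symbols, 9160 without an entry and 64 controls were left out. All 74 member genes matched the RefSeq table of GRCm38.p6 by Entrez ID, with 0 symbols changed. The arrays name no genome build, so coordinates belong to RefSeq promoters only.

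Signals were used as deposited, floored and log2-transformed as the report states; 2-fold was the threshold. The alternatives were 4 scalings, other floors (25th and 75th percentile, both days above, none with 16 added), 3 rules for probe sets, and thresholds of 1.5-fold and 4-fold. The members, gene lists and settings were chosen with earlier results of these data known. Any member could be named, and those past 2-fold had to be. Of each list up to 3 genes farthest past 2-fold and some key genes were named. Eln, Tspan15, Notch1, Sdc1, Ctsk, Ctss, Pcsk6, Furin, Lrat, Des, Dcn and Rgs5 were added after their values were seen. Simulated signals were also run through the processing. The outcome of that run is not reported here, and no statement on the dim members or on the bounds at the floor rests on it. Python 3.11, numpy 2.4.6, pandas 2.3.3 and statsmodels 0.14.6 (loess, fraction 0.3) were used.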

Additional observations from a re-analysis of the deposited data

Results flagged for a closer look

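The annotation gives several gene symbols, at least 1 of them of these families, for 7 further probe sets, which were left out of the comparisons. Of these, 1 was at least 2-fold higher at day 3: it had a signal of 574.1 at day 3, against 123.5 at day 0, a 4.65-fold higher signal. It cannot be given to 1 gene.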

How the results depend on the processing

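No member past 2-fold changed sign under any alternative that gave it a value. Of the 13 higher members, 13 were past 2-fold after median centring and with spike scaling, 11 after quantile normalisation, after loess and with the mean over probe sets, and 12 without shared probe sets. The count of higher members was 22 of 62 when the 25th percentile served as the floor, 2 of 9 under the 75th (Adamts1 and Mmp14), 7 of 23 for genes above the floor on both days and 6 at 4-fold. The count of lower members was 9 under the 25th percentile floor, 1 for genes above the floor on both days, and 0 after spike scaling, under the 75th percentile floor and at 4-fold. Under the 25th percentile floor, 35.5% of members were higher and 14.5% lower, against 14.7% and 11.2% of all genes. The share of lower members there was thus close to that of all genes. Fewer genes were analysed with the higher floor and with both days required. The median log2 ratio of the members, 0.56 as reported, was 0.34 after quantile normalisation, 0.39 after loess, 0.81 with spike scaling, 0.26 under the 25th percentile floor and 0.84 with 16 added. With spike scaling the median of all genes was 0.36, against 0.08 as reported. For the other shifts the cause was not tested. Signal near the floor limits the dim members. No paired analysis was possible because each day has 1 sample.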

Other observations

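Surface proteins that Adam10 and Adam17 release were not described above. Of 17 above the floor, 5 were at least 2-fold higher at day 3 and 1 lower, 29.4% and 5.88%. Over all genes the shares were 12.9% and 5.62%, so the share of lower genes was near that of all genes. The median log2 ratio of the 17 was 0.30. Cdh1, the epithelial cadherin, had 4234 at day 3 and 1245 at day 0, a 3.40-fold higher signal. The EGF receptor ligand genes Tgfa and Hbegf were 2.81-fold and 2.46-fold higher, with another Tgfa probe set at a log2 ratio of 0.14. Notch1 and the proteoglycan gene Sdc1 were 2.15-fold and 2.13-fold higher, with another Sdc1 probe set at -0.27. Il6ra, the interleukin 6 receptor, was 3.25-fold lower. RNA signals do not show whether any of these proteins was shed.

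The cysteine cathepsins that degrade collagen were past 2-fold for 0 of 4. Over all genes, 12.9% were at least 2-fold higher and 5.62% lower. With 4 genes, that count does not set the cathepsins apart from all genes. Ctsk had 127.0 at day 3 and 126.0 at day 0, and Ctss, a macrophage cathepsin, 2888 at day 3 and 1452 at day 0, a 1.99-fold higher signal.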
